A study of Mus musculus with 3 samples.

Results

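The miR-29 family comprises the microRNAs (miRNAs) miR-29a, miR-29b and miR-29c, and all 7 of their mature forms were followed here through postnatal development of the mouse retina, out of 1915 mature miRNAs listed. The forms were chosen by name. The family itself was chosen by its RPM values, with the rise of miR-29a-3p from P1 to P17 already known, so its levels and changes in these libraries are given as a description, with no test. RPM (reads per 1e+06 miRNA reads of a library) is the unit of level throughout. The study sequenced small RNA from whole retinas of C57BL/6 mice (C57BL/6J in the study's methods) 1, 7 and 17 days after birth (P1, P7 and P17), ages between which the retinal vasculature grows and the retina matures. No genetic change or treatment is named for any group. Each age was represented by 1 library, for which 5 eyes gave retinas that were pooled, and the sources used here do not say plainly how many animals these came from. With 1 library per age no difference had a replicate check. The intervals below cover counting error only, not the spread between samples. Reads amplified by PCR and carrying no molecular identifiers cannot be counted as separate molecules, so the intervals may be too narrow even for counting error. In a whole retina, more cells of a type that contains a miRNA cannot be told apart from more of that miRNA per cell.

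MiRNAs guide the Argonaute protein to messenger RNAs that pair with the seed, bases 2 to 8 of the mature miRNA, and lower their translation and stability. Each hairpin precursor gives a 5p and a 3p form. The form that is usually kept in Argonaute is the guide strand, which for miR-29 is the 3p form. The miR-29 family is known for repressing mRNAs of collagens and other extracellular matrix proteins and of the DNA methyltransferases that set new methylation marks. In the brain it is low before birth and abundant in mature neurons, where it is known to repress pro-apoptotic genes.

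The mature sequences of all 7 forms were found in RefSeq (GRCm38.p6), and they are shown with the seed in capitals because the seed is what the family shares. The guide strands are as follows.
mmu-miR-29a-3p: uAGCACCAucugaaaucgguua
mmu-miR-29b-3p: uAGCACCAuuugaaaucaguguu
mmu-miR-29c-3p: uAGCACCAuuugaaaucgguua
The 5p forms, which come from the other arm of each hairpin, are as follows.
mmu-miR-29a-5p: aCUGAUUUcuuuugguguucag
mmu-miR-29b-1-5p: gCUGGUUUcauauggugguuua
mmu-miR-29b-2-5p: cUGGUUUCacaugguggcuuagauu
mmu-miR-29c-5p: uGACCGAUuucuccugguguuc

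The 3 guide strands had the same seed, AGCACCA, and no other sequence among the 1679 mature RefSeq miRNAs carried it. Counted from the 5′ end, miR-29a-3p and miR-29c-3p differed at 1 of 22 positions (C10U, miR-29a-3p first). From miR-29a-3p to miR-29b-3p there were 4 differences over 22 positions (C10U, G18A, U21G and A22U), and miR-29b-3p was 1 base longer, with 23 bases. The last bases of miR-29b-3p, AGUGUU, are known from the human miRNA as a signal for import into the nucleus. Among the 1679 mature sequences 2 ended in these letters (0.119%), miR-29b-3p and miR-92b-5p. The 4 seeds of the 5p forms differed from that of the guide strands and from each other.

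The family is encoded at 2 loci of GRCm38, which is the same build as mm10. Mir29a (ENSMUSG00000065610) lies on chromosome 6 from 31062660 to 31062747 and Mir29b-1 (ENSMUSG00000065604) from 31063023 to 31063093, both on the minus strand with 275 bases between them. They lie outside protein-coding genes in the GENCODE M21 annotation. Mir29b-1 shares its outermost 2 bases with a long non-coding RNA gene on the same strand, Gm27019. Mir29b-2 (ENSMUSG00000065412) lies on chromosome 1 from 195037040 to 195037120 and Mir29c (ENSMUSG00000065548) from 195037547 to 195037634, both on the plus strand with 426 bases between them. Both are inside exon 3 of a transcript of the non-coding host gene A330023F24Rik, and on the opposite strand the same bases belong to a UTR of Cd46. The hairpins of the chromosome 6 locus are shown with the mature forms in capitals, 5p first, since their 5p forms were the rarest of the family.
Mir29a: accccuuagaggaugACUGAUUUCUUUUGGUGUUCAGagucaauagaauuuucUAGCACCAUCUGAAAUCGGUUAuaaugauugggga
Mir29b-1: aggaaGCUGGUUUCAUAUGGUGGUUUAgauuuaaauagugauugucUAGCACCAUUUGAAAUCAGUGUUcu

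MiR-29b-3p has the same sequence from both loci, so its reads cannot be assigned to 1 of them. Its 5p forms differ between the loci, and each of these counts belongs to 1 hairpin if the counting told the forms apart. They were identical at 19 of the 21 positions compared, and whether reads were exchanged between them was not tested. MiR-29a-3p and miR-29c-3p come from different loci but differ by 1 base, so the authors' counting could have split reads between them. Whether that happened was not tested, as the reads were not used here.

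The libraries held 11426320 to 12759995 miRNA reads, so that 1 read was worth 0.0784 to 0.0875 RPM, and the smallest level the depth could show, set at 3 reads, was 0.235 to 0.263 RPM. Changes are differences of log2(RPM + 1), which understate the change of rare miRNAs, and a change was called when it exceeded 2-fold. They were set beside those of 648 miRNAs whose RPM averaged 1 or more across the ages. Of the 7 forms, 5 passed this filter. MiR-29b-1-5p (mean 0.287 RPM) and miR-29a-5p (mean 0.03 RPM) did not. The typical miRNA had a lower share of the reads at P7 than at P1, with a median change of -0.87 over the 648 miRNAs, whereas the median was -0.05 from P7 to P17 and -0.91 from P1 to P17. Scalings that centre the typical miRNA near 0 gave the P1 library a factor of 1.60, against 0.808 at P7 and 0.774 at P17 (TMM), so the values of changes from P1 depend on the scaling more than those from P7 to P17.

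MiR-29a-3p was the most abundant form at every age. Its 359 reads at P1 gave 31.4 RPM, with a 95% Wilson interval of 28.3 to 34.8. At P7 it reached 49.6 RPM (633 reads, 45.9 to 53.6), and 12184 reads gave 1045 RPM (1027 to 1064) at P17. The level at P17 lay far above the other 2, whose intervals did not overlap either. Among all miRNAs of a library its rank rose from 345 at P1 and 223 at P7 to 62 at P17.

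MiR-29b-3p was read 174, 68 and 997 times in the P1, P7 and P17 libraries, or 15.2 RPM (13.1 to 17.7), 5.32 RPM (4.20 to 6.76) and 85.5 RPM (80.4 to 91.0). It was thus lowest at P7 and highest at P17, with no overlap of the intervals. MiR-29c-3p, the least abundant guide strand, had 62, 39 and 423 reads, or 5.43 RPM (4.23 to 6.96), 3.06 RPM (2.24 to 4.18) and 36.3 RPM (33.0 to 39.9). Its order of ages was the same as for miR-29b-3p, and its P1 and P7 intervals only just missed each other.

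The 5p forms were rarer as a group, with 1 exception. MiR-29c-5p had 86, 67 and 279 reads, or 7.53 RPM (6.10 to 9.29), 5.25 RPM (4.14 to 6.67) and 23.9 RPM (21.3 to 26.9), and at P1 and P7 it was listed with more reads than miR-29c-3p from the same hairpin. MiR-29b-2-5p had 20, 15 and 66 reads, or 1.75 RPM (1.13 to 2.70), 1.18 RPM (0.712 to 1.94) and 5.66 RPM (4.45 to 7.20). For both forms the intervals at P1 and P7 overlapped and the P17 level stood above them. The ratio of P7 to P1 was 0.698 for miR-29c-5p, with an exact interval below 1 (0.499 to 0.971). For miR-29b-2-5p it was 0.672, with an interval that included 1 (0.320 to 1.38). The direction of both depends on the scaling, as given below.

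The other two 5p forms came from the chromosome 6 locus and were at or near the limit of detection. MiR-29b-1-5p had no read (0) at P1 or P7 and 10 reads at P17 (0.86 RPM, 0.466 to 1.58). Against the floor of 3 reads per library its level at P17 was at least 3.27-fold higher than at P1 and at least 3.65-fold higher than at P7, taking its 10 reads as exact. With the counting error of all reads, the exact 95% lower bounds of these ratios were 2.20 and 2.45. MiR-29a-5p had 0, 0 and 1 read, which is under the floor at every age, so no fold is given. For a count of 0 the floor of 3 reads stands at 0.263 RPM at P1 and 0.235 RPM at P7. The 95% Wilson upper limits for 0 reads are 0.336 RPM and 0.301 RPM.

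**Figure D1:**
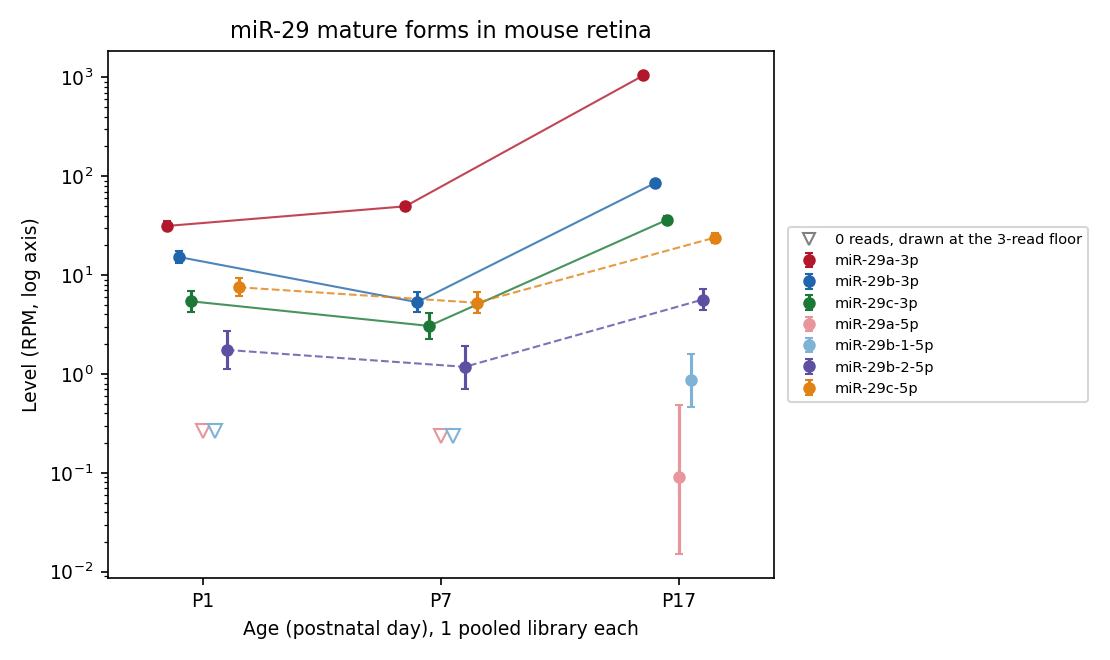
Level of each miR-29 mature form (RPM, log axis) in the P1, P7 and P17 libraries, with 95% Wilson intervals of counting error as bars; solid lines join 3p forms, dashed lines join 5p forms, and open triangles mark forms with 0 reads, drawn at the 3-read floor. MiR-29a-3p lies on top at every age and reaches 1045 RPM at P17, while miR-29b-3p, miR-29c-3p, miR-29b-2-5p and miR-29c-5p are lowest at P7 and highest at P17.

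Ordered by level, the forms at P1 were miR-29a-3p, miR-29b-3p, miR-29c-5p, miR-29c-3p and miR-29b-2-5p. The neighbours miR-29c-5p and miR-29c-3p had overlapping intervals there. At P7 miR-29b-3p (5.32 RPM) and miR-29c-5p (5.25 RPM) could not be separated by their counts. The intervals of miR-29c-5p and miR-29c-3p overlapped slightly at P7, although their ratio within the library, 1.72, had an exact interval above 1 (1.14 to 2.62). At P17 the order was miR-29a-3p, miR-29b-3p, miR-29c-3p, miR-29c-5p, miR-29b-2-5p, miR-29b-1-5p and miR-29a-5p. The intervals of neighbours at P17 did not overlap, except for those of miR-29b-1-5p and miR-29a-5p.

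From P7 to P17 every form that passed the filter was higher by over 2-fold, 5 of the 5, beside 14.0% of the 648 miRNAs over 2-fold higher and 11.6% over 2-fold lower. The family was chosen for this pattern, so the 2 shares are printed side by side and nothing is read from them. On the log2(RPM + 1) scale the change was 4.37 for miR-29a-3p, 3.77 for miR-29b-3p and 3.20 for miR-29c-3p. These were places 2, 5 and 7 among the 648 miRNAs ranked from the largest rise. The 5p forms changed less, by 2.00 for miR-29c-5p and 1.61 for miR-29b-2-5p, in places 18 and 37.

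Without a pseudocount miR-29a-3p was 21.1-fold higher at P17 than at P7 (exact 95% binomial interval 19.4 to 22.9). MiR-29b-3p was 16.05-fold higher (12.5 to 20.8) and miR-29c-3p 11.9-fold higher (8.54 to 16.9). The interval of miR-29a-3p lay above that of miR-29c-3p and overlapped that of miR-29b-3p. The 5p forms were 4.56-fold higher for miR-29c-5p (3.48 to 6.04) and 4.82-fold higher for miR-29b-2-5p (2.72 to 9.08), with upper bounds below the lower bound of miR-29b-3p. The interval of miR-29b-2-5p overlapped that of miR-29c-3p, and the interval of miR-29c-5p did not. This step depended little on the scaling. Over the 5 scalings tried it ranged from 4.14 to 4.46 for miR-29a-3p, from 3.70 to 3.90 for miR-29b-3p and from 3.20 to 3.34 for miR-29c-3p.

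From P1 to P7 the forms did not move together. None was over 2-fold higher, beside 3.09% of all 648 miRNAs, and 1 of the 5, miR-29b-3p, was over 2-fold lower, beside 44.8%. MiR-29a-3p changed by 0.64, miR-29b-3p by -1.36, miR-29c-3p by -0.66, miR-29c-5p by -0.45 and miR-29b-2-5p by -0.34. Set against the median of all miRNAs, miR-29a-3p was 1.51 above it, miR-29b-3p was 0.49 below it (-0.49), and the remaining 3 were 0.20, 0.42 and 0.53 above it, in the same order. MiR-29a-3p was thus higher and miR-29b-3p lower at P7 under all 5 scalings, with ranges of 0.64 to 1.60 and -1.36 to -0.47. With median-of-ratios or TMM scaling miR-29c-3p changed by 0.10 and 0.12, and the sign for miR-29c-5p (0.37 and 0.39) and miR-29b-2-5p (0.22 and 0.23) also turned. For these 2 forms it turned as well with totals without the 10 most abundant miRNAs (0.10 and 0.04), where miR-29c-3p changed by -0.19.

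Over the whole period, from P1 to P17, again 5 of the 5 forms past the filter were over 2-fold higher, beside 10.5% of the 648 miRNAs, while none was over 2-fold lower, beside 46.8%. MiR-29b-3p changed by 2.42 and miR-29c-3p by 2.54, whereas miR-29a-3p changed by 5.01. The 5p forms changed by 1.55 for miR-29c-5p and 1.28 for miR-29b-2-5p. Without a pseudocount the rise of miR-29a-3p was 33.3-fold (29.9 to 37.0), that of miR-29b-3p 5.62-fold (4.78 to 6.63) and that of miR-29c-3p 6.69-fold (5.11 to 8.88). Hence miR-29b-3p and miR-29c-3p rose by amounts whose intervals overlapped, and miR-29a-3p rose by more than either. The sizes depend on the scaling by more than these counting intervals. Over the 5 scalings the log2 change ranged from 5.01 to 6.03 for miR-29a-3p, from 2.42 to 3.41 for miR-29b-3p and from 2.54 to 3.45 for miR-29c-3p.

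**Figure D2:**
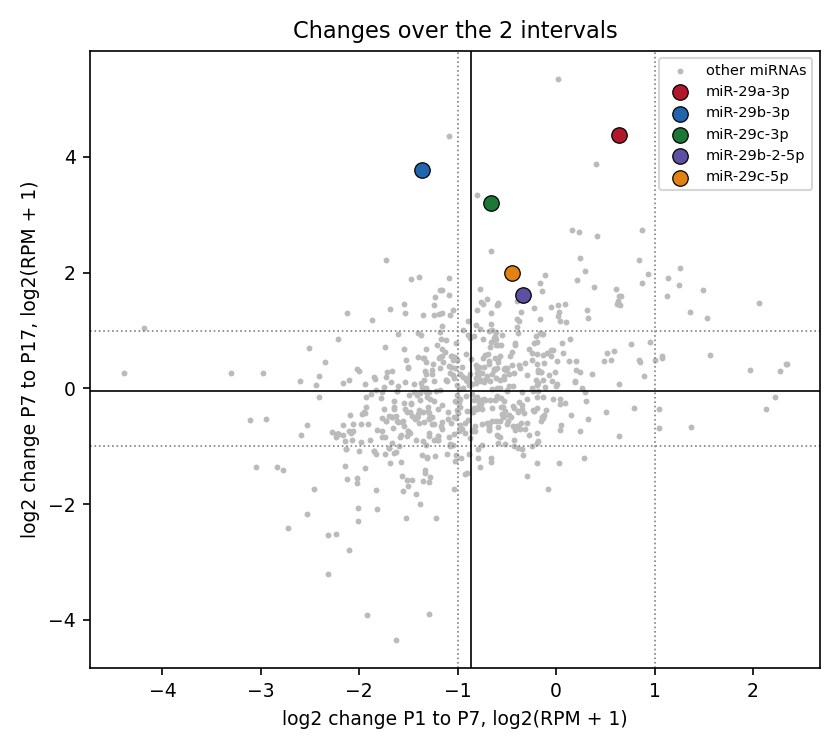
Change from P1 to P7 against change from P7 to P17, both on log2(RPM + 1), for the 648 miRNAs averaging 1 RPM or more; solid lines are the medians of all miRNAs (-0.87 and -0.05) and dotted lines mark 2-fold. The 5 miR-29 forms past the filter lie above the upper 2-fold line of the second interval, with miR-29a-3p to the right of 0 and miR-29b-3p beyond the lower 2-fold line in the first interval.

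**Figure D3:**
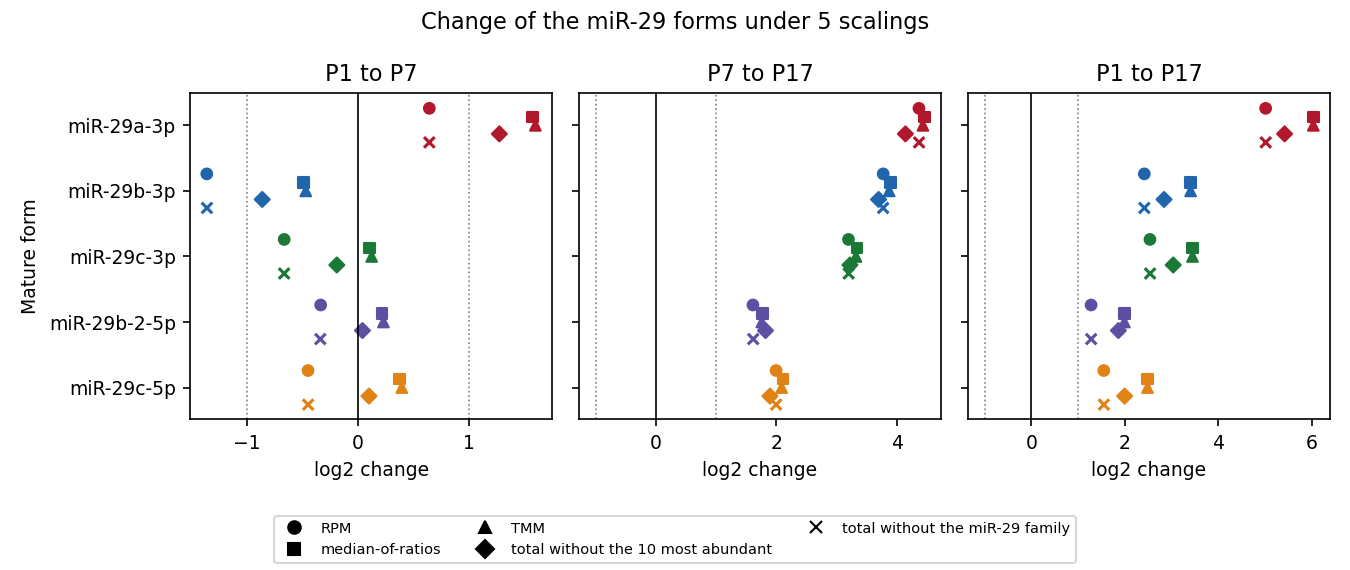
Log2 change of the 5 miR-29 forms past the filter (rows) over each interval, under deposited RPM and 4 other scalings (marker shapes); dotted lines mark 2-fold. The values for P7 to P17 bunch together well above 0, whereas those for P1 to P7 spread, and miR-29c-3p, miR-29b-2-5p and miR-29c-5p lie on either side of 0.

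The guide strands together, which share 1 seed and so compete for the same target sites, took 595, 740 and 13604 reads at the successive ages. Their summed level was 52.1 RPM (48.1 to 56.4), 58.0 RPM (54.0 to 62.3) and 1167 RPM (1147 to 1187). At P1 and P7 the summed levels overlapped, and at P17 the sum was 0.117% of all miRNA reads. Leaving the family out of the totals moved the change of miR-29a-3p from P7 to P17 from 4.369 to 4.371. The sum changed by 0.15 from P1 to P7 and by 4.31 from P7 to P17. The first of these values hides opposite movements. Without miR-29a-3p the summed change from P1 to P7 was -1.21, and with median-of-ratios scaling the full sum changed by 1.09.

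The make-up of the guide strands changed with age. MiR-29a-3p gave 60.3% of their reads at P1 (56.4 to 64.2), 85.5% at P7 (82.8 to 87.9) and 89.6% at P17 (89.0 to 90.1). MiR-29b-3p gave 29.2% (25.7 to 33.0), 9.19% (7.31 to 11.5) and 7.33% (6.90 to 7.78). MiR-29c-3p gave 10.4% (8.21 to 13.1), 5.27% (3.88 to 7.12) and 3.11% (2.83 to 3.41). Most of the shift towards miR-29a-3p was therefore present at P7, before the large rise. Pooling miR-29a-3p with the near-identical miR-29c-3p gave 70.8%, 90.8% and 92.7%, which leaves the same order of ages.

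**Figure D4:**
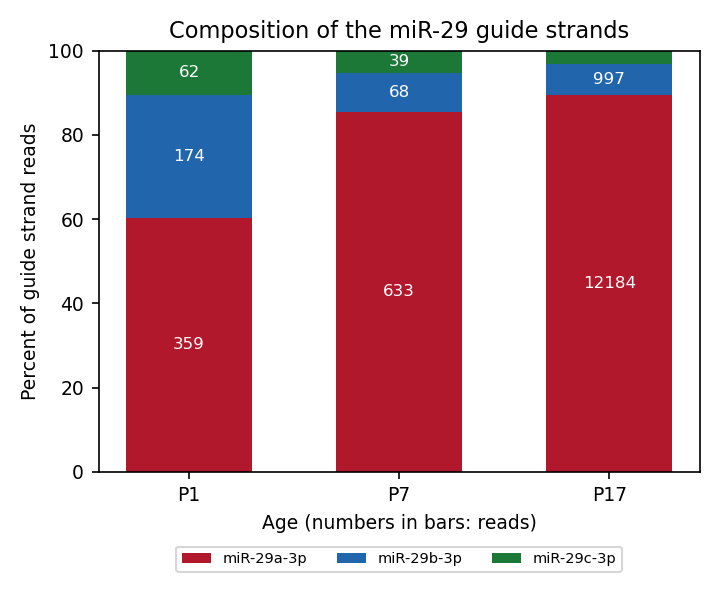
Percent of the summed guide strand reads given by each 3p form at P1, P7 and P17 (stacked bars, 1 library per age, read counts written in segments large enough to hold them). The share of miR-29a-3p is 60.3% at P1 and 85.5% and 89.6% at P7 and P17, and those of both other forms are lower at P7 and P17 than at P1.

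Ratios of 2 forms within a library do not depend on the scaling. There were 2.06 reads of miR-29a-3p for each read of miR-29b-3p at P1 (exact 95% interval 1.72 to 2.49), 9.31 at P7 (7.24 to 12.1) and 12.2 at P17 (11.5 to 13.05). This ratio rose 4.51-fold from P1 to P7 (3.28 to 6.24), and the 1.31-fold change from P7 to P17 had an interval that includes no change (0.998 to 1.70). Against miR-29c-3p the ratio of miR-29a-3p was 5.79 (4.41 to 7.71), 16.2 (11.7 to 23.0) and 28.8 (26.1 to 31.8), and it rose over both intervals, 2.80-fold (1.81 to 4.39) and 1.77-fold (1.23 to 2.49). MiR-29b-3p and miR-29c-3p kept closer to each other, with ratios of 2.81, 1.74 and 2.36. The change of that ratio from P1 to P17 was 0.840-fold, with an interval from 0.605 to 1.16.

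MiR-29a and miR-29b-1 are neighbours at one locus and miR-29b-2 and miR-29c at the other. MiR-29b-2-5p and miR-29c-5p, the 5p forms of the chromosome 1 locus, stayed in nearly one ratio. It was 0.233 at P1 (0.135 to 0.382), 0.224 at P7 (0.119 to 0.396) and 0.237 at P17 (0.178 to 0.310), and the change from P1 to P17 was 1.02-fold with an interval of 0.570 to 1.88. Between the 2 sources of miR-29b, the 5p form of the chromosome 6 hairpin was the rarer one. There were 0 reads of miR-29b-1-5p against 20 of miR-29b-2-5p at P1, 0 against 15 at P7 and 10 against 66 at P17. The ratio at P17 was 0.152 (0.0695 to 0.297), and the counts at P1 and P7 allowed ratios of up to 0.203 and 0.279, so a change with age was not detectable at this depth.

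The balance of the arms differed widely between the 4 hairpins. The Mir29a hairpin printed above gave almost only its 3p form, with 1 read of miR-29a-5p beside 12184 of miR-29a-3p at P17. From the Mir29c hairpin neither arm dominated to that extent, with 1.39 reads of 5p per read of 3p at P1 (0.989 to 1.95), 1.72 at P7 (1.14 to 2.62) and 0.660 at P17 (0.565 to 0.769). The interval included equal reads at P1, the 5p form was in the majority at P7, and the 3p form, named as the guide strand, was in the majority at P17. At P17 miR-29a-3p, which differs by 1 base, had 12184 reads beside 423 of miR-29c-3p. A small part of them counted as miR-29c-3p would lower the P17 ratio, and whether that happened was not tested. For miR-29b-2 the ratio of its 5p form to miR-29b-3p from both loci was 0.115 (0.0685 to 0.183), 0.221 (0.117 to 0.390) and 0.0662 (0.0508 to 0.0850).

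Between P7 and P17 miR-29c-5p lost ground to miR-29c-3p, and miR-29b-2-5p to miR-29b-3p. The limit given above for miR-29c-3p reads holds here as well. MiR-29b-3p reads can come from both loci. A shift of arms at the Mir29b-2 hairpin thus cannot be told apart from a larger part of these reads from Mir29b-1. On the log2 scale, with 0.5 reads added to each arm, the balance of 5p over 3p moved by -1.37 in miR-29c and by -1.76 in miR-29b-2. Without added reads the changes were -1.38 (-2.03 to -0.74) and -1.74 (-2.65 to -0.74). Across the 184 hairpins whose 5p and 3p forms both met the filter, the median change over this interval was 0.09, with the middle 90% spanning -1.38 to 1.53. MiR-29c was thus at percentile 5.43, just inside that range, and miR-29b-2 at percentile 2.17, outside it, where part of the miR-29b-3p reads come from the other locus. The P7 ratio of miR-29b-2 rests on 15 reads of its 5p form. From P1 to P7 the changes were 0.30 for miR-29c and 0.95 for miR-29b-2, and the intervals of both included 0. Between P1 and P17 the balance moved by -1.07 in miR-29c and by -0.82 in miR-29b-2. These lay at percentiles 13.04 and 18.48, both inside the middle 90% for those ages (-1.89 to 2.49). Without added reads, the interval of miR-29c lay below 0 (-1.62 to -0.53), and that of miR-29b-2 included 0 (-1.58 to 0.04). Over all 7 forms, the 5p reads went from 15.1% of the family at P1 (12.7 to 18.0) and 9.98% at P7 (8.11 to 12.2) to 2.55% at P17 (2.30 to 2.82). Most reads of the family at each age were of miR-29a-3p (359, 633 and 12184), whose hairpin gave almost no 5p reads. This share therefore follows the level of miR-29a-3p and does not measure the balance of arms at the other hairpins.

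**Figure D5:**
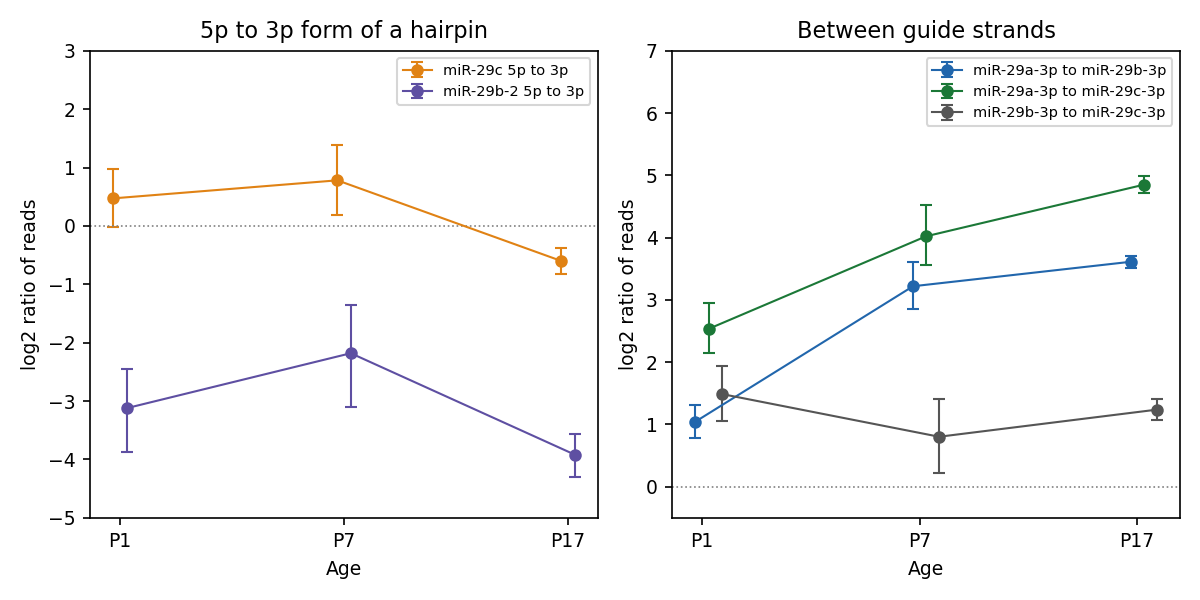
Log2 ratio of reads within each library at P1, P7 and P17, with exact 95% binomial intervals, for the 5p against the 3p form of miR-29c and miR-29b-2 (left) and between pairs of guide strands (right). The 5p to 3p ratios are lowest at P17, and the ratios of miR-29a-3p to miR-29b-3p and to miR-29c-3p are higher at P7 and P17 than at P1, while that of miR-29b-3p to miR-29c-3p stays between 1.74 and 2.81.

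The miRNAs outside the family with the most similar changes were found by the distance between the changes over the 2 intervals, over 3 libraries. Nearest to miR-29a-3p was miR-375-3p (distance 0.54 on the log2 scale), with 9.10, 12.4 and 196.6 RPM at P1, P7 and P17. The other four were miR-211-3p, miR-150-5p, miR-490-5p and miR-490-3p, at distances of 1.16 to 1.72. Nearest to miR-29b-3p was miR-211-5p (0.64), a miRNA abundant in retinal pigment epithelium, which had 549.7, 258.6 and 5315 RPM and so the same low point at P7. It was followed by miR-5119, miR-499-5p, miR-1968-5p and miR-375-3p, at 0.71 to 1.77. Nearest to miR-29c-3p was miR-5119 (0.20), which rests on 10, 1 and 116 reads, followed by miR-499-5p, miR-490-5p, miR-490-3p and the neuronal miR-124-3p, at 0.83 to 1.21. Within the family, the distance between miR-29b-3p and miR-29c-3p was 0.90, whereas miR-29a-3p was 2.09 from the former and 1.75 from the latter.

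Other miRNAs known to repress DNA methyltransferases were set beside the family. Of 7 such miRNAs, all past the filter, none was over 2-fold higher or lower from P7 to P17, beside 14.0% higher and 11.6% lower among all 648, so that these counts lie near the background. Their median change was -0.04 and their range -0.63 to 0.17, beside a median of -0.05 over all miRNAs. From P1 to P17 none was higher and 2 were lower with RPM, beside 10.5% and 46.8%, and their median was -0.75. With median-of-ratios scaling 1 was higher and none lower, beside 25.5% and 23.9% of all miRNAs, and the median was 0.29. The most abundant of them, miR-148a-3p, had 27983, 19358 and 16620 RPM. MiR-101a-3p, which had 2021, 2313 and 2504 RPM, was the one member with a positive change from P1 to P17 on the RPM scale (0.31).

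Of 11 miRNAs known to rise as neurons of the brain mature, 4 were over 2-fold higher from P7 to P17 and none was lower, beside 14.0% and 11.6% of all 648, and the median change of the list was 0.60. The 4 were miR-124-3p (2.64), miR-129-5p (2.21), miR-129-2-3p (2.09) and miR-132-3p, at 45.6 RPM at P7 and 131 RPM at P17, of which the last 3 are named here after their values were seen. Of the most abundant members, miR-9-5p changed by -0.76 and miR-218-5p and miR-128-3p by -0.03 each. From P1 to P17 4 were higher and 4 lower with RPM, beside 10.5% and 46.8% of all miRNAs. With median-of-ratios scaling 6 were higher and none lower, beside 25.5% and 23.9%. The 3 guide strands of miR-29 had larger changes from P7 to P17 than any member of this list. The family was chosen with its rise already known, so nothing is read from that order.

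The libraries were checked for the retina and for other tissues with 23 marker miRNAs, each of which had reads at every age. The 5 markers of retinal neurons and photoreceptors summed to 223656, 432211 and 387928 RPM at P1, P7 and P17. That sum was lower at P17 than at P7, whereas the summed markers of each other cell type were higher. Its members differed, however. From P7 to P17 miR-124-3p changed by 2.64 and miR-183-5p by 0.57, against -0.35 for miR-182-5p, -0.14 for miR-96-5p and -0.76 for miR-9-5p. The 2 endothelial markers (miR-126a-3p and miR-126a-5p) summed to 1261, 3643 and 8530 RPM, and the 2 mural cell markers to 195.0, 376.3 and 1492 RPM. The 2 lens and cornea markers summed to 103.4, 119.3 and 569.6 RPM, nearly all of it miR-184-3p, while miR-205-5p had 31, 4 and 8 reads. The 3 muscle markers summed to 132.4, 89.97 and 240.1 RPM, although one of them, miR-206-3p, was highest at P7 (15.75, 22.73 and 16.9 RPM). The 4 markers of white blood cells and microglia summed to 13.6, 17.7 and 35.9 RPM. Most of that last difference was miR-150-5p, with 0.53, 1.80 and 17.75 RPM, while miR-142a-3p had 6.91, 8.46 and 8.49 RPM. The 2 pigment epithelium markers summed to 15211, 7226 and 14334 RPM, but differed from each other. MiR-204-5p had 14661.5, 6967 and 9019 RPM, and miR-211-5p had 549.7, 258.6 and 5315 RPM. The 3 red blood cell markers summed to 161.4, 115.6 and 157.0 RPM. In RPM these 2 sums and that of the muscle markers were lowest at P7, as miR-29b-3p was. From P1 to P7 the red blood cell and muscle sums changed by -0.48 and -0.55, a smaller fall than the median of all miRNAs (-0.87). Whether the red blood cell and muscle sums are lowest at P7 therefore depends on the scaling. The pigment epithelium sum changed by -1.07, a larger fall than that median. The part of the marked cell types in the changes of the miR-29 forms was not tested.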

How the data were processed

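Small RNA was sequenced from pooled retinas, 1 library per age. Per the paper's methods, adaptors and reads of low quality were taken out by the authors and the remaining reads were mapped to mm10 with HISAT2, whereas the submitters' processing notes name FastQC and BWA. The miRNA annotation and the counting rule are not given in the sources used here. Each deposited table lists a raw read count for 1915 mature miRNAs. It also lists RPM values made by the authors, which differ by at most 0.0192 RPM from the share of each miRNA in the summed counts.

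RPM values were used as deposited, with a pseudocount of 1 RPM, a minimum mean of 1 RPM (648 miRNAs) and a criterion of 2-fold. The study also required an adjusted p-value, which was not applied because the spread between samples cannot be estimated from single libraries. Shares have Wilson intervals and ratios exact binomial intervals, all at 95%. Sequences were matched by name to RefSeq for 1623 of the 1915 miRNAs. The miRNAs named are the 7 forms, the 5 nearest patterns to each guide strand, cell type markers and up to 4 of the most abundant members of each of 2 lists. MiR-129-5p, miR-129-2-3p and miR-132-3p of the neuronal list were named besides, after their values were seen. The members and lists were chosen with earlier results of these data known. Alternatives were median-of-ratios size factors (644 miRNAs), TMM factors from edgeR, totals that leave out the 10 miRNAs with most reads in each library (13 in all) or the family, and other pseudocounts, filters and folds. The scripts for calls and intervals were tested on simulated data. Python 3.11.15, scipy 1.17.1, R 4.3.3 and edgeR 4.0.16 were used, edgeR for scaling factors alone.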

Additional observations from a re-analysis of the deposited data

How the results depend on the processing

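The number of miR-29 forms over 2-fold higher from P7 to P17, and from P1 to P17, was 5 under each scaling, 4 with a pseudocount of 5 RPM or a minimum mean of 10 RPM, and 3 with a fold criterion of 4. From P1 to P7 the number higher (0 with RPM) was 1 with median-of-ratios, TMM, totals without the 10 most abundant miRNAs or a fold of 1.5. The number lower (1 with RPM) was 0 with those 3 scalings, a pseudocount of 5 RPM or a fold of 4, and 2 with a fold of 1.5. The summed guide strands changed from P1 to P7 by 1.09 (median-of-ratios), 1.12 (TMM), 0.77 (totals without the 10 most abundant) and -1.21 (without miR-29a-3p), against 0.15. From P7 to P17 they changed by 4.08 with totals without the 10 most abundant and by 3.71 without miR-29a-3p, and from P1 to P17 by 5.49 (median-of-ratios and TMM), 4.85 and 2.50 in the order used above. Pooled with miR-29c-3p, the share of miR-29a-3p was 70.8%, 90.8% and 92.7%.

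Of all 648 miRNAs, 62 (median-of-ratios), 63 (TMM), 49 (totals without the 10 most abundant), 41 (fold 1.5) and 6 (fold 4) were higher from P1 to P7, against 20, and 71, 69, 149 and, with a fold of 4, 56 were lower, against 290. Over the same interval 212 were lower with a pseudocount of 5 RPM and 430 with a fold of 1.5. From P7 to P17, 147 (fold 1.5) and 17 (fold 4) were higher, against 91, and 149 (totals without the 10 most abundant), 44 (pseudocount of 5 RPM), 177 (fold 1.5) and 14 (fold 4) were lower, against 75. From P1 to P17, 165 were higher and 155 lower with median-of-ratios or TMM, and 38 and 141 with a fold of 4, against 68 and 303. The cause of these differences was not tested.

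Of the 5 nearest miRNAs to each guide strand, 3 were the same with a minimum mean of 10 RPM. No paired analysis was possible because there is only 1 library at each age, and for the same reason none was left out. Depth limits miR-29a-5p and miR-29b-1-5p, and the spread between animals is unknown.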
